A study of Caenorhabditis elegans with 6 samples.

Results

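Clusters of neighbouring NHR-25 binding regions are described here, that is, places where 3 or more regions follow each other along a chromosome with no more than 2000 bp between consecutive midpoints. They were chosen by position from the combined peak list of a chromatin immunoprecipitation sequencing (ChIP-seq) experiment in Caenorhabditis elegans. Its 6029 peaks were first joined into 5720 regions where they overlapped by at least 1 bp. The rule left 329 chains, which hold 1237 regions, 21.6% of all regions (exact Clopper-Pearson 95% interval 20.6 to 22.7%, counting error only). Another 1178 regions lay in pairs and 3305 were single, with no other midpoint within 2000 bp.

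NHR-25 is a nuclear receptor of the NR5 family, related to FTZ-F1 of Drosophila and SF-1 of mammals, which bind DNA as single molecules and regulate transcription. In C. elegans it is known for roles in the epidermis, in molting and in the development of the vulva and gonad. A regulatory sequence often holds several binding sites, and a peak list shows such sites as separate regions only where they lie further apart than the resolution of the assay.

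The worms were L2 hermaphrodites of strain OP33, which has unc119(ed3) and the transgene wgIs33 made of nhr-25::TY1 EGFP FLAG and unc119, grown at 20 °C with HB101 as food and crosslinked in 2% formaldehyde. All samples carry the same tagged transgene, which was brought in by bombardment of unc-119(ed3) worms. Binding is therefore that of the tagged protein in chromatin of whole larvae. The series has 3 ChIP samples, precipitated with antibodies against GFP, and 3 input samples, which are not analysed here. Whether the replicates are separate cultures is not stated, so the spread between them may be technical.

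The combined list was set beside the lists of the 3 ChIP replicates, which hold 30000, 29241 and 30000 peaks. Each peak carries a number from the authors, which is used as the place of a region. Every peak at the highest value of a list is numbered before every other peak, so low numbers are called strong here. Among the 4546 combined peaks that share the highest value, the order of strength is taken from the numbers alone. A region's place in a replicate is the lowest number of a peak that overlaps it. The first 6029 peaks of a replicate, as many as the combined list holds, are called its top list. Positions are on the WS220 build. Since no list gives read counts, the depth behind each peak is unknown.

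Because positions in the combined list chose the chains, and that list belongs to the same ChIP samples as the replicate lists, all values below are descriptions. No test was run on them.

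Most chains were short, and a few were long. There were 198 chains of 3 regions (60.2%), 79 of 4, 25 of 5 and 18 of 6. Only 9 chains had 7 or more regions, namely 2 of 7, 1 of 8, 3 of 9, 2 of 12 and 1 of 21. The median span was 3308 bp, measured from the first base of the first region to the last base of the last one, and its quartiles were 2690 and 4270 bp. The shortest chain spanned 1432 bp and the longest 24225 bp. Together the chains stretched over 1218 kb, of which their regions covered 40.0%.

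**Figure D1:**
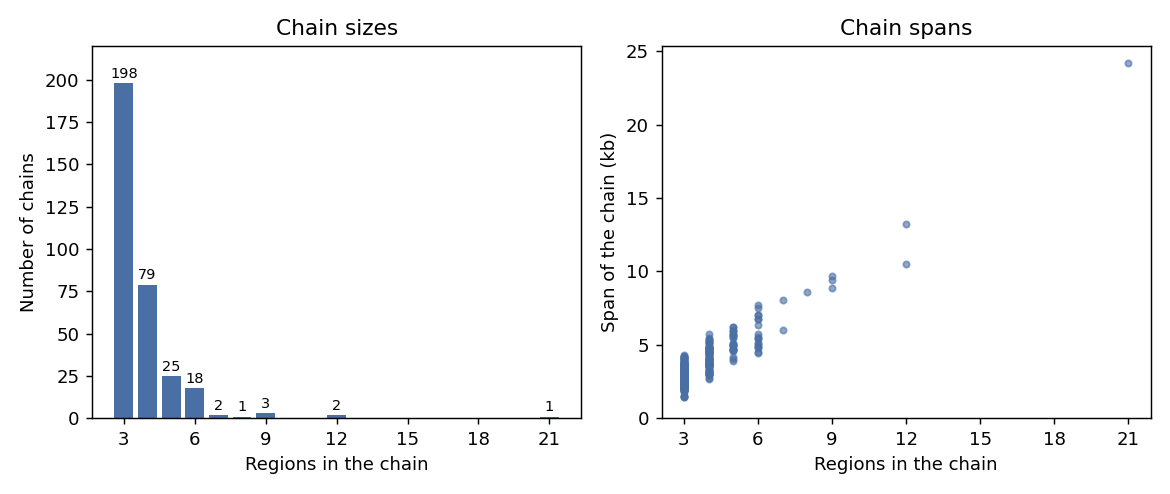
Left, the number of chains (y axis) by the number of regions in the chain (x axis), with the count above each bar. Right, the span of each chain in kb against its number of regions, 1 point per chain; 1 chain of 21 regions reaches 24225 bp, well beyond the others.

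The longest chain lay on chromosome II from 6821204 to 6845428 and had 21 regions. Replicates 1, 2 and 3 had 18, 18 and 17 of them in their top lists, and 13 were in every one. Its first region, number 289 of the combined list, was at the left end and had the places 261, 211 and 657 in replicates 1, 2 and 3. The next best lay near the other end, at 6842627 to 6842973, with the combined number 585 and the places 276, 1152 and 540. Strong regions thus stood at the left end and near the right end of this chain, and replicate 3 placed number 585 before number 289. The regions to the right of number 585 were weak, with the numbers 4512, 4726 and 4352. Its weakest region by the combined list, number 5142, was in 1 top list. The spacings ranged from 671 to 1976 bp, so that the chain holds together only because no spacing passed the limit. When the same rule was applied to the top lists, the most of its regions that fell into 1 chain were 11, 9 and 9 in replicates 1, 2 and 3. No replicate alone gave a chain of more than 11 regions anywhere.

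Both chains of 12 regions were backed by most of their members in each replicate, but were built differently. On chromosome V from 6221033 to 6234262, 10 regions were in each replicate's top list and 8 in every one. One region stood out there, at 6224197 to 6224980, with the combined number 57 and the places 26, 72 and 58. Only 1 other of its regions, number 225, was among the first 1000 combined peaks. On X from 12999491 to 13010025, replicates 1, 2 and 3 had 9, 11 and 11 regions, and 9 were in every top list. Its last 3 regions were its strongest, numbers 132, 74 and 97 from left to right, and each replicate put a different one of them first. The regions with the numbers 913 and 1202 in this chain lay 199.5 bp apart by midpoint and overlapped 1 and the same best peak in each replicate, with the places 716, 2004 and 619, so their support is not separate.

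The chains of 9 regions included one with most of its members among the strong peaks. On X from 6735436 to 6744308, 6 of 9 regions were among the first 1000 combined peaks and the best had the number 64. Its support was 8, 9 and 8 regions in replicates 1, 2 and 3. Regions 1 to 4 and 6 to 9 of the chain were in every top list, while the fifth, number 4013, had the places 6161, 1753 and 25315. On V from 11794401 to 11803824 the support was 7, 9 and 9 regions, with 3 regions among the first 1000 and all 9 at the highest value of the list. On X from 9547204 to 9556886 it was 7, 9 and 6, and the region with the number 198 was first in each replicate, at places 182, 140 and 241. In each of these, replicate 2 held all 9 regions.

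Smaller chains among the 12 with the most regions showed the same mixture of strong and weak members. The chain of 8 on X from 15272925 to 15281519 began with 4 regions of the numbers 1092, 49, 95 and 257 and ended with 4 of the numbers 2818, 3710, 2504 and 3016. The chain of 7 on chromosome I from 13058136 to 13066185 had its strongest region at the right end, number 124, placed at 118, 130 and 127. The chain of 7 on III from 7296070 to 7302068 had a single region among the first 1000, number 542, placed at 436, 505 and 658. The other 3 were chains of 6: on II from 9601048 to 9606174, on I from 530029 to 537051 and on V from 11530929 to 11537305. Their support in replicates 1, 2 and 3 was 5, 4 and 5 regions on II, 6, 4 and 5 on I, and 5, 4 and 5 on V.

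**Figure D2:**
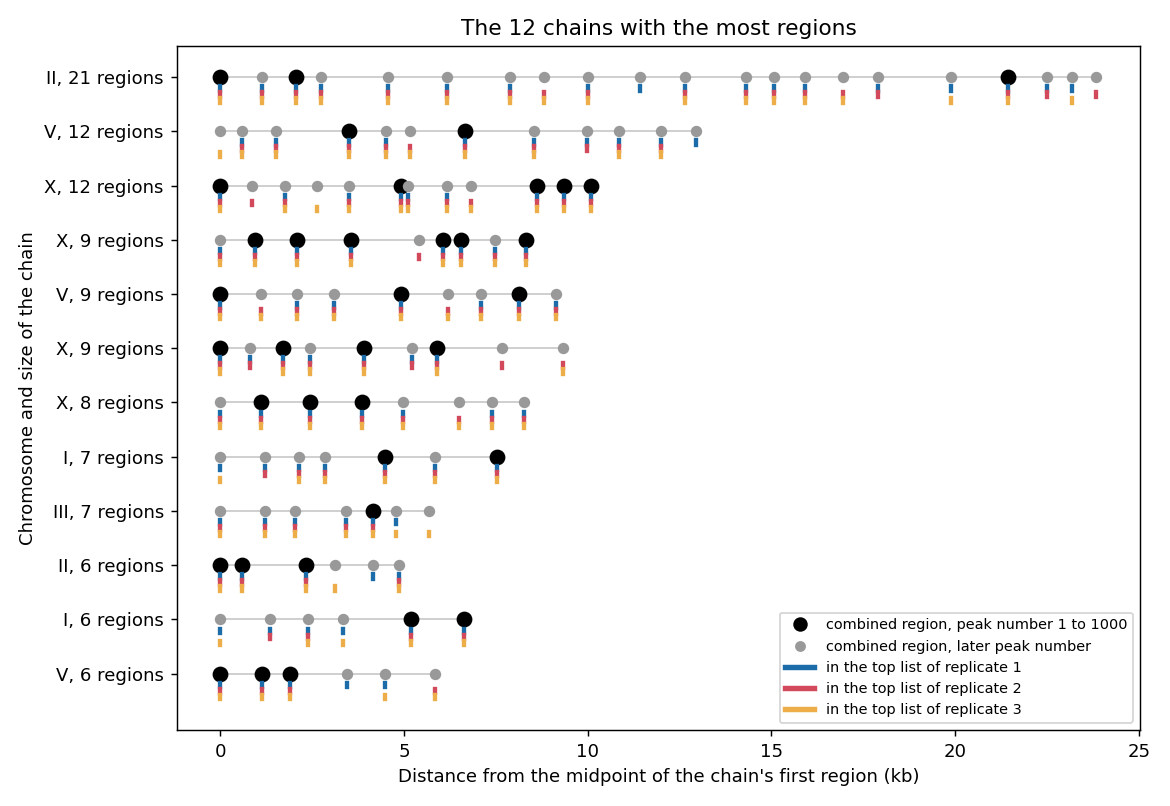
The 12 chains with the most regions, 1 per row with its chromosome and number of regions (y axis), drawn to scale by distance in kb from the midpoint of the chain's first region (x axis). Circles are combined regions, large and black for numbers 1 to 1000 and small and grey for later ones, and the coloured ticks below show the replicates whose top list holds the region; strong and weak regions stand side by side, and the chain of 21 has only 3 black circles.

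Chains made wholly of strong regions were few. In 165 of the 329 chains (50.2%) at least 1 region was among the first 1000 combined peaks, in 21 chains at least 3 were, and in 3 chains all were. Such regions made up 17.3% of all regions (988 of 5720) and 20.0% of chain regions. What these shares alone would give per chain was not computed, so the counts are not read as a trait of chains. These 3 lay on III from 1923511 to 1926766, on III from 8794731 to 8797606 and on I from 5311614 to 5316928. The first of them had the lowest mean number of all chains, 153. Its middle region, at 1924994 to 1925603, had the combined number 15 and the places 17, 15 and 23, and its flanking regions had the numbers 138 and 306. In the second the numbers were 693, 99 and 465, again with the strongest in the middle, and in the 4 regions on chromosome I they were 179, 278, 826 and 625. The chains with the next lowest means, on III from 5919968 to 5922482 and on IV from 13077821 to 13080536, had all 3 regions in every top list.

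At the other end, the 3 shortest chains came with closely set calls. The shortest, on X from 8584784 to 8586215, spanned 1432 bp with spacings of 209 and 868.5 bp. Its first 2 regions overlapped the same best peak in replicates 2 and 3, at places 1640 and 1432. The next, on IV from 8431671 to 8433133 and from 2764181 to 2765676, spanned 1463 and 1496 bp. Such shared peaks were rare over all chains: 16, 14 and 13 of the 908 neighbouring pairs were touched by 1 and the same top peak in replicates 1, 2 and 3, in 21 chains in all. Counting each such pair as 1 region would leave 7, 5 and 3 chains with fewer than 3 regions. Among the widest chains not named so far, that on IV from 8819689 to 8827188 was found least evenly, with 2, 5 and 3 of 6 regions in replicates 1, 2 and 3. Those on II from 8740295 to 8747992 and on X from 10765952 to 10773003 each had 5, 6 and 6 of 6.

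The support of single members in the replicates was close to that of all regions. Of the 1237 chain regions, 1001 (80.9%), 1005 (81.2%) and 973 (78.7%) were in the top lists of replicates 1, 2 and 3, a mean of 80.3 ± 1.41% (SD, n = 3). Over all 5720 regions the corresponding shares were 79.4, 77.1 and 77.2%. In every top list were 727 chain regions (58.8%, exact 95% interval 56.0 to 61.5%, counting error only). The share was 55.4% of all regions, 55.5% of those in pairs and 54.0% of single ones. At the highest value of the combined list, which many peaks share, were 973 chain regions (78.7%, against 76.5% of all regions). The difference between the top-list shares of chain and single regions was 2.19, 6.12 and 1.62 percentage points in the 3 replicates, a mean of 3.31 ± 2.45 (SD, n = 3). It had the same sign in each replicate but was not much larger than its spread. Only 20 chain regions were in no top list (1.62%, against 2.5% of all regions). Each of them overlapped a peak in the full list of at least 1 replicate, as did every one of the 5720 regions.

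Set side by side at like places in the combined list, chain and single regions differed mainly among the later numbers. Among numbers 1 to 1000, 100% of both were in every top list. Between numbers 1000 and 2000 it was 97.7% of 218 chain regions and 97.8% of 550 single ones. Between numbers 2000 and 3000 it was 78.6% of 196 chain regions and 77.5% of 565 single ones, between 3000 and 4000 39.6 and 36.3%, and between 4000 and 5000 14.2% of 190 and 8.86% of 553. After number 5000 it was 3.26% of 184 chain regions and 1.12% of 536 single ones. From number 2000 on, the chain regions were ahead in each of these classes, though only slightly between numbers 2000 and 3000. After number 5000 the shares rest on few regions. This split was made after seeing the data and no spread was computed, so the lead is not read as a trait of chains.

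Members of chains of 6 or more were more often in every top list and more often strong than those of shorter chains. The share of regions in every top list was 56.4% in chains of 3, 57.3% in chains of 4, 61.6% in chains of 5 and 66.3% in chains of 6 or more. In the 27 chains of 6 or more, 170 of 202 regions were in the top list of each replicate (84.2%), although not always the same ones. Of these 202 regions 32.7% were among the first 1000 combined peaks, compared with a background of 17.3% for all regions. The share was 16.5% of 594 in chains of 3, 19.0% of 316 in chains of 4 and 18.4% of 125 in chains of 5. The median number was 2994.5, 2745, 2706 and 2080.5 in chains of 3, 4, 5 and 6 or more. Top-list shares by replicate did not rise steadily with size. In chains of 3, 4 and 5 they were 79.6, 81.3 and 80.8% in replicate 1. They were 80.5, 77.8 and 88.8% in replicate 2 and 76.1, 79.7 and 79.2% in replicate 3.

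**Figure D3:**
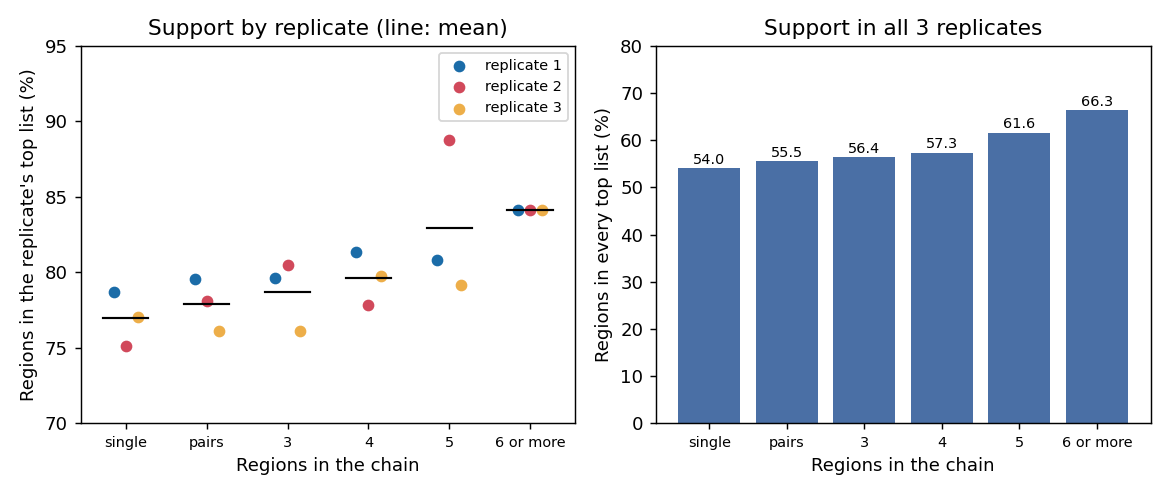
Left, the share of regions in the top list of each replicate (y axis from 70 to 95%, 1 point per replicate, line at the mean of 3) for single regions, pairs and chains by size (x axis). Right, the share in every top list, from 54.0% for single regions to 66.3% in chains of 6 or more.

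Chain regions were also placed somewhat earlier in the lists. Their median number was 2797 in the combined list, against 3036 in pairs and 2963 for single regions. In replicates 1, 2 and 3 the medians were 2634, 2745 and 2771 for chain regions and 3187, 3322 and 3244 for single ones. The groups did not overlap over the replicates, and the difference was -534 ± 54.5 places (SD, n = 3). With the median number of all overlapping peaks in place of the lowest, it shrank to -168, with values of -57, -158 and -287.5 in replicates 1, 2 and 3. Among early numbers the share in chains was mostly higher: chains held 28 of the first 100 combined regions, 27.7% of the 495 regions with numbers up to 500 and 25% of the 988 up to 1000, beside 21.6% of all. The exact 95% intervals were 19.5 to 37.9%, 23.8 to 31.8% and 22.3 to 27.8%. They cover counting error only and treat regions as independent, although regions enter chains together with their neighbours. That of the first 100 includes the share over all regions, and the others are not read as a test. In replicates 1, 2 and 3, chains held 28, 27.1 and 22.4% of the regions among the first 100, and 28.7, 29.0 and 27.6% of those among the first 500. The first 100 of replicate 3 were thus close to the share over all regions. Of the first 10 combined peaks just 1 was in a chain, number 3, in the chain on IV from 4745564 to 4750266, which was named after its values were seen. Of 636 regions among the first 1000 in every replicate, a stricter set of strong sites, 168 were in chains (26.4%), and they made up 13.6% of chain regions where the background was 11.1%.

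A whole chain counts as found only where each of its regions is, which makes the count lower by construction. Every region of the chain was in the top list in 166 chains for replicate 1, 157 for replicate 2 and 140 for replicate 3, that is 46.9 ± 4.01% (SD, n = 3). All regions were in every top list in 53 chains (16.1%, exact 95% interval 12.3 to 20.5%). At least 3 regions were in every top list in 108 chains, exactly 2 in 125, 1 in 68 and none in 28. With all deposited peaks of the replicates, 289 chains (87.8%) had every region in every replicate. Counted by region this was 96.6% of chain regions and 95.9% of all regions, so it is no trait of chains. The median chain had its first region at number 997 and its weakest at number 4773.

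Applied to the top lists themselves, the rule gave 308, 323 and 293 chains in replicates 1, 2 and 3 (mean 308 ± 15, SD, n = 3), which held 20.5, 22.1 and 19.9% of the regions there. The share in chains was therefore close to that of the combined list in each replicate. Matching the chains themselves is a stricter count, and lower by construction, since in the 198 chains of 3 every region has to be found. A combined chain was counted as found again where at least 3 of its regions overlapped regions of 1 replicate chain, and this held for 194, 195 and 181 chains (57.8 ± 2.37%, SD, n = 3). Of the 329, 101 were found again in all 3 replicates, 91 in 2, 85 in 1 and 52 in none. Conversely, 99, 112 and 93 chains of replicates 1, 2 and 3 touched no combined chain.

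Within a chain, the replicates often but not always chose the same strongest region. The region with the lowest peak number was the same in every replicate in 164 of 329 chains (49.8%), and it was then also first in the combined list. Replicates 1 and 2 chose the same one in 61.1% of chains, replicates 1 and 3 in 67.5% and replicates 2 and 3 in 62.6%. In 28 chains each replicate chose another. Where the first region was among the first 500 combined peaks, the choice was the same in 81 of 99 chains (81.8%). Where it came after number 1000, the choice was the same in 41 of 164 (25%). The combined list belongs to the same samples, and 100% of chain regions numbered 1 to 1000 were in every top list. This contrast is therefore in part built in. In 6, 5 and 5 chains of replicates 1, 2 and 3 the first place was shared by neighbours under the same peak, and the leftmost was then taken.

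The strongest region lay at an end of the chain about as often as equal places would give. In the combined list it lay at an end in 199 chains (60.5%), and in replicates 1, 2 and 3 in 57.1, 57.1 and 59.3%. If every place in a chain were equally frequent, the chain sizes would give 57.6%. In chains of 3 it was the left region in 66, the middle one in 59 and the right one in 73. The numbers of neighbouring regions in a chain were only weakly related (Spearman's rho 0.126 over 908 pairs in the combined list, and 0.118, 0.105 and 0.0879 over 893, 892 and 882 pairs in replicates 1, 2 and 3). These pairs share a library and a stretch of chromosome, and so weak a relation is no finding.

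Spacing inside chains was broad. The median distance between consecutive midpoints was 1168.5 bp, the quartiles were 872 and 1504 bp, and the extremes were 153 and 1998 bp, where 2000 bp is the limit the rule sets. Short distances were rare: 33 of 908 were under 600 bp, while 136 lay between 600 and 800 bp and 157 between 800 and 1000 bp, the fullest of the 200-bp bins. Such short distances were also rare in the replicates, at 2.94, 1.85 and 2.68% of the distances in chains in replicates 1, 2 and 3. The commonest peak widths were 430, 430 and 450 bp in these lists, and calls closer than their own width overlap and are joined into 1 region. Above these widths distances were still few in the combined chains, with 4 from 500 to 550 bp and 10 from 550 to 600 bp. Whether joining has a part in the lack of short distances was not tested. Between facing edges the median distance was 766.5 bp, and 14 pairs were 100 bp or less apart.

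**Figure D4:**
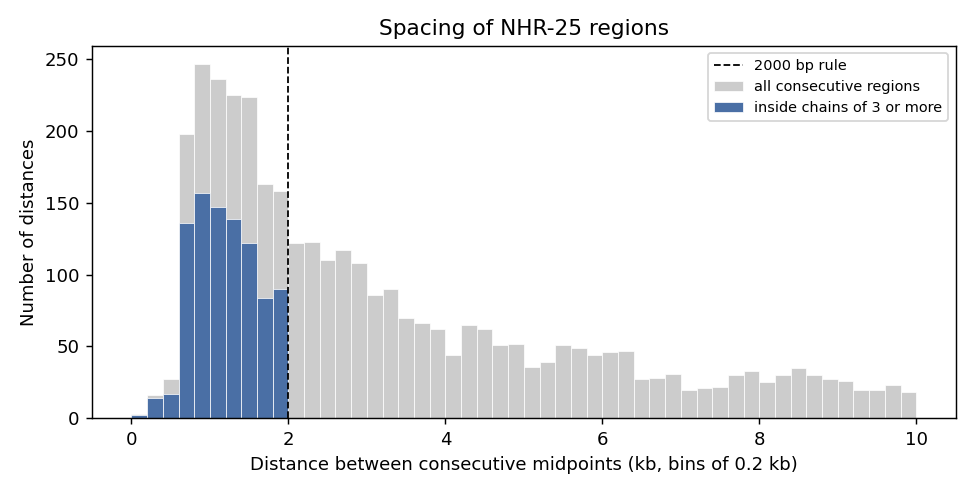
Distances between consecutive region midpoints in bins of 0.2 kb (x axis) and their number (y axis), for all neighbouring regions of the combined list in grey and for those inside chains of 3 or more in blue; the dashed line marks the rule. Few distances fall under 600 bp, and the bin from 800 to 1000 bp holds the most inside chains, 157.

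Spacings were uneven within most chains. The largest spacing of a chain was a median of 1.63 times its smallest, and in 65 chains (19.8%) all spacings were within a factor of 1.2. In the 198 chains of 3, Spearman's rho between both spacings was 0.0654. The spacings in each replicate were close to those of the combined list. With both regions in the top list under different peaks, the median difference was 43.25, 54 and 44 bp in replicates 1, 2 and 3. Of the spacings compared, 78.6, 75.2 and 77.6% were within 100 bp. The midpoints themselves lay a median of 25, 29 and 28 bp from the combined ones. Only peaks that overlap a combined region enter here, which limits these differences in advance. The replicates were not compared with each other.

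The rule has a sharp limit, and 21 distances lay within 20 bp below it and 14 within 20 bp above. Of the former, 4 hold a chain together that would otherwise have too few regions. The closest of these was at 1998 bp, on V from 3193013 to 3195450, between the numbers 3496 and 1896. Of those above, 2 would have made a further chain, at 2008 bp on V from 11310870 to 11313317 (numbers 1508 and 4436) and at 2011.5 bp on III from 5599956 to 5602287 (numbers 5723 and 1737). The numbers inside and outside were of the same order.

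Replicate peaks that touched no combined region were denser between the regions of a chain than elsewhere. Whether the other replicates had the same peaks was not examined. The gaps between chain regions hold few positions where a peak of the usual width could lie without touching a region, 368 kb in replicates 1 and 2 and 354 kb in replicate 3. In that room replicates 1, 2 and 3 had 21, 28 and 27 top peaks that touched no combined region, or 57.1, 76.2 and 76.4 per Mb. Outside chains and pairs they had 11.9, 12.9 and 12.5 per Mb, a ratio of 5.61 ± 0.696 (SD, n = 3). Inside pairs the ratio was 3.31 ± 0.244. With the full lists, where most peaks are weak, the ratio was 1.82 ± 0.0920 in chains and 1.73 ± 0.0471 in pairs. The top-list counts are small, so single peaks move these values. By the rule, gaps in chains are short and have a called region on each side. The room elsewhere takes in all remaining gaps, a mean of 94904 kb over the replicates. How far the ratios follow from that choice was not tested, so they are not read as a trait of chains.

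Broad signals made up little of the chains. Of the chain regions, 6.95% were joined from 2 or more peaks, compared with 6.03% in pairs, 4.11% of single regions and 5.12% of all. At least 1000 bp wide were 4 regions in 3 chains, 0.323% of chain regions, as against 14 of all regions (0.245%). Chain regions were narrower than 440 bp, the commonest width of the combined list, in 33.7%, single regions in 28.4%. Among the first 1000 numbers the order was the other way round, with 68.4% of 247 chain regions and 86.0% of 558 single ones below that width. Over all numbers, 56.1% of chain regions and 66.5% of single ones were exactly 440 bp wide. Regions wider than that were thus also more frequent in chains than among single regions. Whether width has a part in the support by replicate peaks was not tested.

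Chains occurred on every nuclear chromosome. There were 64 on X, 60 on V, 53 on II, 52 on III and 50 each on I and IV. Per Mb of chromosome this came to 3.77 on III, 3.61 on X, 3.47 on II, 3.32 on I, 2.87 on V and 2.86 on IV. In the combined list the share of a chromosome's regions that lay in chains ran from 19.0% on III to 24.3% on V, although III had the most chains per Mb. On I, II, IV and X it was 20.2, 23.6, 20.1 and 22.3%, beside 21.6% over all regions. In the top lists of replicates 1, 2 and 3 the share in chains was 22.3, 26.0 and 24.3% on V and 20.6, 18.5 and 16.3% on III. The 2 chromosomes did not overlap over the replicates. II had 21.2, 26.2 and 22.3% and X 21.6, 21.3 and 22.3%, and both overlapped with V. I had 17.7, 21.5 and 17.4% and IV 19.2, 18.5 and 16.1%. The order thus changed between lists: III was lowest in no replicate, and II was above V in replicate 2. Of the 27 chains of 6 or more regions, 9 were on X, 5 each on II and V, 4 on I, 3 on IV and 1 on III. These counts are small, and X also had the most regions, 19.8% of all.

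On the autosomes chains were concentrated in the middles of the chromosomes. Of 265 autosomal chains 198 (74.7%) lay in the central 50% of the span, as against 64.2% of autosomal regions. In the central parts 25.3% of the autosomal regions were in chains and in the outer parts 14.5%. Chromosome V was the most uneven, with 51 chains in the centre and 9 outside it (4.88 and 0.860 per Mb). On X, 33 chains were central and 31 outer (3.73 and 3.50 per Mb), and 23.1% of central and 21.6% of outer regions were in chains. The right outer part of X had 19 chains, with 23.4% of its regions in them, and the left outer part 12 chains and 19.0%. On III the left outer part had 3 chains with 7.35% of its regions, and the right outer part 11 with 16.0%. Chains need near neighbours, and the part that the density of regions has in these shares was not tested.

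**Figure D5:**
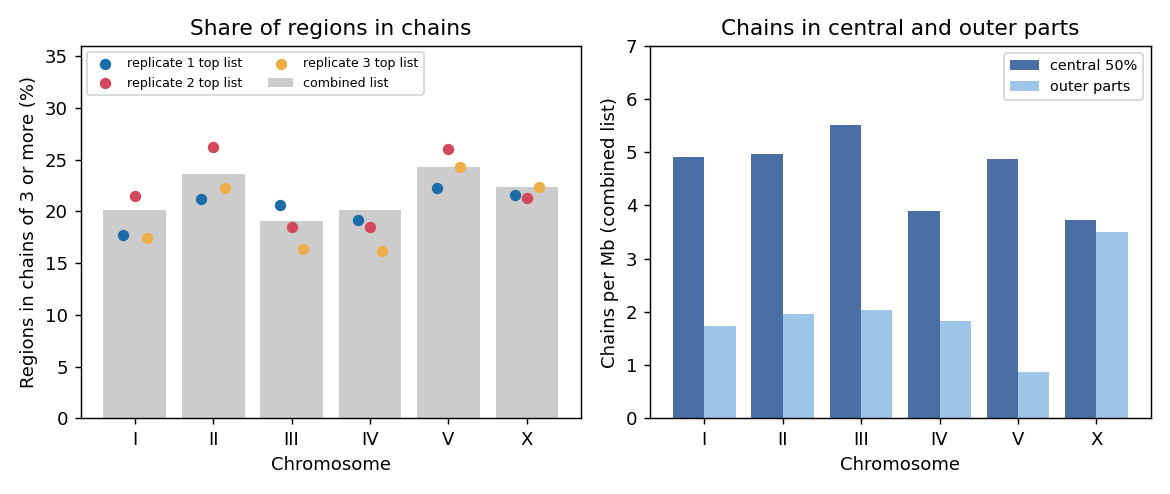
Left, the share of regions in chains of 3 or more (y axis) by chromosome (x axis), with bars for the combined list and 1 point per replicate top list. Right, chains per Mb of the combined list in the central 50% and the outer parts of each chromosome; on X both are nearly equal, 3.73 and 3.50, and on V they are 4.88 and 0.860.

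Chains were mostly far apart from each other. The median distance from one chain to the next was 166 kb, and 49 chains (14.9%) had another within 10 kb. The longest stretch without a chain was on II from 24786 to 2800885, 2776 kb.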

How the data were processed

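Peak lists of the 3 ChIP replicates and the combined list were used. Per the file headers, coordinates are on WormBase WS220 and the source field names SPP with IDR (irreproducible discovery rate). The sources used here do not state the aligner, the filters or how lists were merged. The value the authors deposited for each peak was taken as the −log10 of an estimated false discovery rate, a unit inferred from the values and stated in no label. Its highest value is 3.96 in the combined list and is shared by 4546 peaks. The authors' peak numbers were therefore used for ranking. Joining, chaining and overlap (1 bp) were computed in Python 3.11.15 with numpy 2.4.6, and exact intervals with scipy 1.17.1, after the steps were tested on simulated lists. A chromosome's length was set to the end of its rightmost peak. A region without a peak in a replicate counted as last in medians, and mitochondrial peaks of the top lists (9, 17 and 11) formed no chains. The members, lists and rule were chosen with earlier results of these data known. The chains named are the 12 with the most regions (ties by the lowest peak number of a member, so the 3 chains of 6 among them hold strong regions by choice), the 5 with the lowest mean number, and the 3 widest and 3 shortest of the rest. The gene table used here is on another assembly, WBcel235, so no gene, motif or sequence is given for any chain. The planned comparison of motifs and genes was left out. Alternatives were the chaining distance, chain size, list length, overlap and replicates left out.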

Additional observations from a re-analysis of the deposited data

How the results depend on the processing

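The number and share of regions in chains follow from the rule and moved with it. At 1000 bp there were 62 chains with 3.50% of the regions, and at 4000 bp 564 with 41.9%; at 1500 and 3000 bp the share was 13.7 and 33.6%, and between facing edges 26.6%. With at least 2, 4 or 5 regions a chain, there were 918, 131 and 52 chains with 42.2, 11.2 and 5.72%. The first 3014 peaks gave 81 chains (10.1%), peaks at the ceiling 185 (15.6%), peaks in every top list 104 (11.6%), and unjoined peaks a share of 24.9%. With all deposited replicate peaks, 96.6% of member regions were in every replicate's list, against 95.9% of all regions. For member regions the share was 37.1% with peaks at the ceiling, 35.2% with 3014-peak lists and 54.8% by midpoint. At 1000 bp it was 62.0%, and with 1 replicate left out 66.3 to 67.8%. The share over all regions is not given for these other settings. Whole chains had shares of 87.8% with all peaks, 2.74% at the ceiling, 2.43% with 3014-peak lists and 23.7 to 28.6% with 1 left out. Chains found again ranged from 57.0 to 59.1% with 1 left out and were 23.6% with 3014-peak lists, 30.5% at the ceiling, and 9.63 and 63.3% where the replicate lists alone were chained at 1000 and 4000 bp and the combined chains were kept. Other values were 4022 for the median place by the median overlapping peak, 766.5 bp for spacing by edges, and, for the same first region, 26.5% by the authors' value (34 chains without ties) and 61.1 to 67.5% with 1 left out. The causes were not tested.

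These alternatives were chosen after seeing the data. The difference in place between chain and single regions was -168 by the median overlapping peak, -479 by the nearest peak, -397 without chains of 6 or more, and -565 to -513 with 1 replicate left out. The difference of the share in every top list, 4.73 points, was 2.25 by midpoint and 0.720 with all deposited peaks. Of 77 alternatives over 11 results, 28 stayed within 1.5 times the number of chains or, for other values, within the exact interval or the SD between replicates. For the 2 results that are differences, none of 11 alternatives reversed the sign. No paired analysis was possible because no result comes from a test and only 1 of the groups that share replicate numbers was used; chain and single regions were compared within each replicate. The motif and gene position alternatives were not run.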
